A study of Mus musculus with 6 samples.

Results

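Expression of 8 genes of B cells and plasma cells (Cd79a, Cd79b, Blk, Cd22, Ms4a1, Pou2af1, Tnfrsf17 and Mzb1) was compared between 4 castrated and 2 intact mouse prostates. The genes were taken by symbol from the 24421 gene symbols of the deposited tables, and all 8 were present. All 6 samples carried the same engineered genotype, with PB-Cre4, a Cre recombinase under a probasin promoter that is active in prostate epithelium, and a homozygous floxed allele, so the Cre-driven deletion was shared by both groups and is not aimed at B cells. The labels call the castrated group Cx and give neither the animals' age, nor the time since castration, nor whether each sample was 1 animal, so a p-value here speaks only of variation among the 6 samples, part of which may be technical.

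B cells recognise antigen through a surface immunoglobulin that signals through the paired chains encoded by Cd79a and Cd79b, and coreceptors such as Cd22 set the strength of that signal. On activation some B cells become plasma cells, which lose most of these surface molecules and instead load their endoplasmic reticulum with antibody. In the prostate both are immigrant cells among a majority of epithelial and stromal cells, so their transcripts are a small share of the RNA. In bulk tissue, fewer cells of a type and less RNA per cell cannot be told apart.

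The gene-level totals ran from 43679297 reads, in intact sample 1, to 59170793 reads, in castrated sample 4. The values are CPM, reads per 1000000 reads counted in genes, divided here by a scaling factor per sample between 0.978 and 1.05, and are called rescaled CPM. A count of 3 reads, the limit that a count of 0 allows, corresponds to 0.0507 to 0.0687 CPM, which covers counting error only. Of the epithelial markers, the keratin gene Krt8 lay between 1536 and 2505 rescaled CPM in castrated and at 2337 and 1931 in intact samples. The B cell gene Cr2 was detected in all 6 samples, from 0.0874 rescaled CPM in intact sample 2, near that limit, to 2.98 in castrated sample 2. Of 16 listed immunoglobulin genes 3 are in the tables, Igll1, Vpreb1 and Vpreb2, none of which reached 1 CPM in any sample. The other immunoglobulin genes on that list, among them those of the antibody heavy and light chains, were not analysed here. The low values of these 3 genes therefore do not give the level of antibody transcripts.

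Cd79a, which encodes the immunoglobulin alpha chain of the B cell receptor (GRCm38 chromosome 7, 24897381 to 24902197, plus strand), stood at 5.91, 10.7, 4.61 and 2.63 rescaled CPM in castrated samples 1 to 4. In intact samples 1 and 2 it stood at 14.0 and 3.48. Intact sample 1 was the highest of the 6 and castrated sample 4 the lowest, so the groups overlapped. Cd79b, the beta chain of the same receptor (chromosome 11, 106311341 to 106314762, minus strand), stood at 3.10, 6.91, 3.80 and 2.47 rescaled CPM in castrated samples 1 to 4, against 10.4 and 2.69 in intact samples 1 and 2. Here too intact sample 1 was the highest and castrated sample 4 the lowest. Per kilobase of annotated exon, Cd79a lay above its partner in 6 of 6 samples, with ratios of 1.87, 1.52, 1.19 and 1.05 in castrated samples 1 to 4, against 1.31 and 1.27 in the intact samples.

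Blk, a Src family kinase that acts downstream of the B cell receptor (chromosome 14, 63372836 to 63417037, minus strand), stood at 2.02, 2.91, 1.05 and 2.08 rescaled CPM in castrated samples 1 to 4, against 3.65 and 1.05 in the intact samples. Cd22, a sialic acid binding receptor that dampens B cell receptor signals (chromosome 7, 30865402 to 30880342, minus strand), stood at 3.35, 5.96, 2.94 and 4.00 in castrated samples 1 to 4, against 9.55 and 1.57 in the intact samples. Of the exon bases of Cd22, 9.5% also belong to a gene on the opposite strand. The strand setting of the counting is unknown here, so reads in that stretch could have been set aside or mixed in. Ms4a1, which encodes the B cell surface protein CD20 (chromosome 19, 11249675 to 11266241, minus strand), stood at 2.38, 4.72, 1.34 and 1.05 in castrated samples 1 to 4, against 8.17 and 0.192 in the intact samples. For these 3 genes intact sample 1 was above and intact sample 2 below every castrated sample, although for Blk intact sample 2 and castrated sample 3 had 60 reads each. This arrangement was seen in 1.47% of the 13898 genes tested.

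Pou2af1, a coactivator that partners the octamer-binding factors in B cells and is needed for germinal centres (chromosome 9, 51213708 to 51240080, plus strand), stood at 3.19, 5.89, 4.27 and 3.62 rescaled CPM in castrated samples 1 to 4, against 7.02 and 4.42 in the intact samples. Intact sample 2 lay inside the castrated range. Mzb1, an endoplasmic reticulum protein that assists antibody assembly in plasma cells and marginal zone B cells (chromosome 18, 35647267 to 35649367, minus strand), stood at 2.03, 5.21, 5.68 and 2.87 in castrated samples 1 to 4, against 5.78 and 4.88 in the intact samples. Both intact samples and castrated samples 2 and 3 lay between 4.88 and 5.78, and castrated samples 1 and 4 were lower. In the annotation used here another gene on the same strand shares 57.2% of the exon bases of Mzb1, so its count is uncertain if reads in shared stretches were set aside. Tnfrsf17, the receptor BCMA of plasma cells (chromosome 16, 11313812 to 11320074, plus strand), had 14, 8, 6 and 13 reads in castrated samples 1 to 4, against 3 and 16 reads in the intact samples. It stayed under 0.3 rescaled CPM in every sample, below the filter for testing, and was lowest in intact sample 1, where the other 7 genes were highest.

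**Figure D1:**
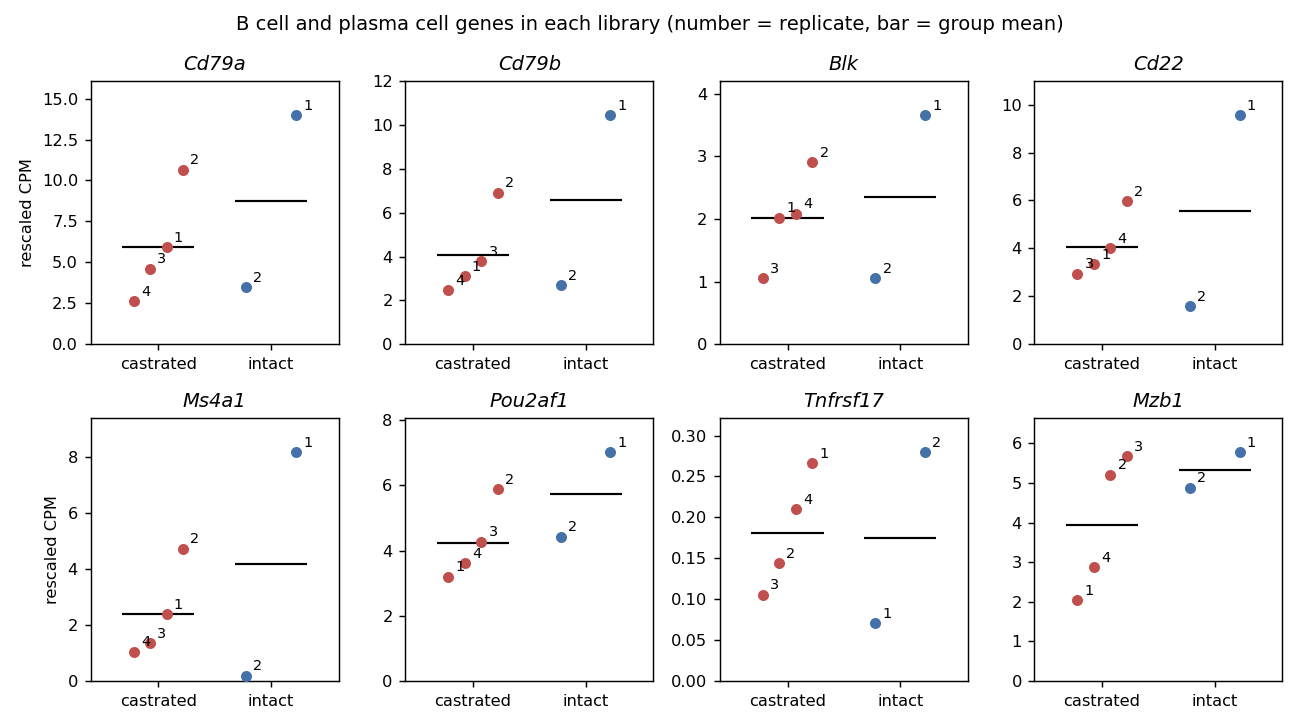
Rescaled CPM of the 8 genes in each library, with castrated samples on the left and intact samples on the right of each panel. Points are libraries with their replicate number and bars are group means. Intact sample 1 is the highest library in 7 of the 8 panels, and the castrated samples overlap the intact pair in each panel.

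On the scale of rescaled CPM per kilobase of exon, which allows levels to be compared between genes, Cd79a averaged 4.09 in castrated and 5.99 in intact samples, Mzb1 3.25 in castrated and 4.39 in intact samples, and Cd79b 2.84 in castrated and 4.59 in intact samples. Pou2af1 followed with 1.66 in castrated and 2.25 in intact samples and held the fourth place in 6 of 6 samples. Below it lay Cd22 (0.806 in castrated and 1.10 in intact samples), Blk (0.747 in castrated and 0.871 in intact samples), Ms4a1 (0.383 in castrated and 0.676 in intact samples) and Tnfrsf17 (0.222 in castrated and 0.215 in intact samples). Neighbours in this order were not all separated: Mzb1 exceeded Cd79a in 3 of 6 samples, Cd22 exceeded Blk in 4, and Ms4a1 exceeded Tnfrsf17 in 4. The exon lengths sum over all annotated transcripts of a gene, 6187 bases for Ms4a1 against 815 for Tnfrsf17, so a gene read mainly from a short transcript is placed too low.

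The comparison of castrated with intact samples asks whether B lineage transcripts differ once androgens are withdrawn. In limma, fitted to log2(rescaled CPM + 0.5) over all tested genes with Benjamini-Hochberg adjustment, 0 of the 7 tested genes passed the threshold of 0.05, where 1.97% of all 13898 genes did (0.698% higher and 1.27% lower). None of the 7 had an unadjusted p under 0.05, against 15.9% of all genes, and edgeR and DESeq2 on the recovered reads called 0 each. Of all genes edgeR called 1.46% (0.389% higher and 1.07% lower) and DESeq2 9.3% (4.76% higher and 4.54% lower). Groups that did not overlap were seen in 0 of the 7 and in 26.6% of all genes. The log2 differences, castrated minus intact, were -0.38 for Cd79a, -0.46 for Cd79b, -0.07 for Blk, -0.04 for Cd22, 0.06 for Ms4a1, -0.39 for Pou2af1 and -0.48 for Mzb1, with adjusted p from 0.592 to 0.989. Of the 7, 6 were negative, against 49.9% of all genes, and their median was -0.38, against 0.00 over all genes tested. These signs depended on single libraries. Without intact sample 1, the differences were positive for Cd79a (0.54), Cd79b (0.43), Blk (0.64), Cd22 (1.09) and Ms4a1 (1.89), and they stayed negative for Pou2af1 (-0.09) and Mzb1 (-0.37). Without intact sample 2, all 7 were negative, between -1.76 for Ms4a1 and -0.59 for Mzb1.

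The failure to pass does not show that the groups were alike, because the intervals were wide. The 95% interval of the log2 difference ran from -2.33 to 2.45 for Ms4a1, which spans a level 0.199 times to 5.47 times that of intact samples. It ran from -1.92 to 1.16 for Cd79a, from -1.80 to 0.88 for Cd79b, from -1.20 to 1.07 for Blk and from -1.51 to 1.42 for Cd22. The narrowest was that of Pou2af1, from -1.09 to 0.31, and Mzb1 lay between -1.43 and 0.47. The median width over the 7 genes was 2.68, against 0.83 over all genes tested.

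**Figure D2:**
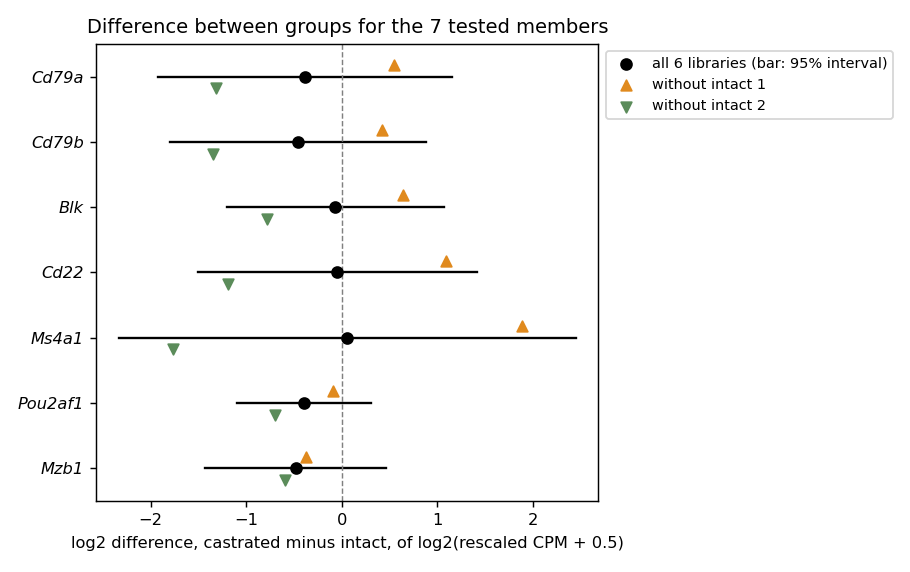
Log2 difference, castrated minus intact, of the 7 tested genes (horizontal axis). Black points are the fit to all 6 libraries with bars for the 95% interval, and triangles are the fits without intact sample 1 or without intact sample 2. Each interval includes 0, and the triangles of Cd79a, Cd79b, Blk, Cd22 and Ms4a1 lie on opposite sides of 0.

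The intact samples differed widely from each other, and intact sample 1 was the highest of the 6 in 7 of the 7 tested genes, against 17.2% of all genes. Ms4a1 had 349 reads in intact sample 1 and 11 in intact sample 2, a ratio of 42.5 after scaling (exact 95% binomial interval 23.4 to 85.9). Cd22 was 6.07 times as high in intact sample 1 (4.82 to 7.71), Cd79a 4.02 times (3.41 to 4.74), Cd79b 3.88 times (3.22 to 4.69) and Blk 3.48 times (2.57 to 4.77). These intervals cover counting error between 2 libraries, not variation between animals. On the log2 scale the differences of these 5 genes, from 1.42 for Blk to 3.65 for Ms4a1, exceeded those of 98.1% to 99.9% of all tested genes, whose median absolute difference was 0.16. Pou2af1 differed less, 1.59 times (1.34 to 1.88), and Mzb1 by 1.18 times (0.994 to 1.41), within counting error. Tnfrsf17 ran the other way, with 3 reads in intact sample 1 and 16 in intact sample 2, a ratio of 0.251 (0.0469 to 0.877). The antibody joining chain gene Jchain, named after its values were seen, also ran the other way, at 82.8 rescaled CPM in intact sample 1 and 191 in intact sample 2. It belongs to a list of 18 plasma cell and antibody secretion genes that had no common direction. Of these 18, 10 were higher in intact sample 1, with a median log2 difference of 0.02.

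The castrated samples varied as well. Castrated sample 2 was the highest of the 4 for 6 of the 8 genes. From the highest to the lowest castrated sample, Ms4a1 spanned 4.50 times (interval 3.42 to 6.0), Cd79a 4.05 times (3.40 to 4.85) and Cd79b 2.80 times (2.31 to 3.40). These binomial intervals cover counting error only. They do not allow for the choice of the highest and lowest of the 4 samples, which raises such ratios. The log2 range of Cd79a among castrated samples, 1.83, exceeded that of 95.6% of tested genes, and that of Ms4a1, 1.75, exceeded 95.1%. Blk spanned 2.76 times, Cd22 2.03 times, Pou2af1 1.84 times and Mzb1 2.79 times. Jchain stood at 83.6, 182, 136 and 106 rescaled CPM in castrated samples 1 to 4.

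The receptor and surface genes varied together. Across the 6 samples the Pearson correlations of log2 values among Cd79a, Cd79b, Blk, Cd22 and Ms4a1 ranged from 0.75 to 0.95 in the 10 pairs, those of Mzb1 with these 5 genes from -0.0038 to 0.59, and those of Pou2af1 with them from 0.57 to 0.91. Pou2af1 and Mzb1 correlated at 0.80. These are descriptions over 6 points that share libraries and depth. The sum of the 5 genes per kilobase was 8.02, 15.2, 7.0 and 5.27 in castrated samples 1 to 4, against 21.5 and 5.0 in the intact samples. The ratio of Mzb1 to Ms4a1 per kilobase was 4.36, 5.61, 21.6 and 13.9 in castrated samples 1 to 4, against 3.60 and 129 in the intact samples. Intact sample 2 had the highest ratio of the 6, which rests on 11 Ms4a1 reads.

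**Figure D3:**
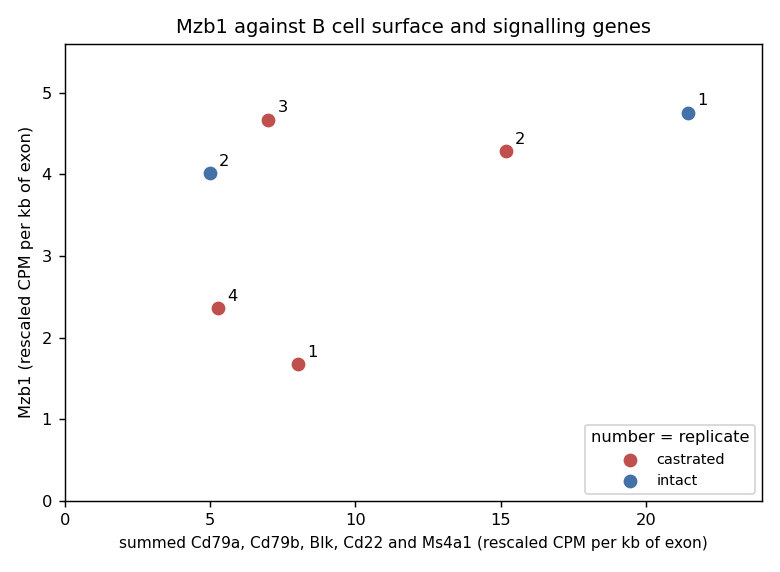
Mzb1 (vertical axis) against the summed level of Cd79a, Cd79b, Blk, Cd22 and Ms4a1 (horizontal axis), both in rescaled CPM per kilobase of exon, 1 point per library with its replicate number. Intact sample 1 lies at 21.5 and intact sample 2 at 5.0 on the horizontal axis, with Mzb1 at 4.76 and 4.02.

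To show the regulatory sequence of these genes, the RefSeq promoters (GRCm38.p6, 250 bases before to 50 after the start site) of a receptor chain, a coreceptor and the coactivator are printed here. RefSeq promoters were matched for 4 of the 8 genes. They were searched on both strands for the octamer ATGCAAAT, to which Pou2af1 is recruited by its partner factors, for TCCCNNGGG, the core bound by the early B cell factor EBF, and, chosen after the sequences were seen, for GGAAGT, a core of ETS factor sites. Capitals mark the matches. The Cd79a sequence is chr7:24897247-24897546 on the plus strand, that of Cd22 is chr7:30878979-30879278 on the minus strand, and that of Pou2af1 is chr9:51213440-51213739 on the plus strand. The start sites used for Cd79a and Cd22 lie inside the annotated genes.
Cd79a: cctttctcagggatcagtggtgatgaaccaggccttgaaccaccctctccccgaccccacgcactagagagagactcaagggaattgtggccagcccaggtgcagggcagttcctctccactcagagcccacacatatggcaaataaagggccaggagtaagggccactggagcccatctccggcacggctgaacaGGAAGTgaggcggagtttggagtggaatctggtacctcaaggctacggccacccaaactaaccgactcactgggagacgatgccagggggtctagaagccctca
Cd22: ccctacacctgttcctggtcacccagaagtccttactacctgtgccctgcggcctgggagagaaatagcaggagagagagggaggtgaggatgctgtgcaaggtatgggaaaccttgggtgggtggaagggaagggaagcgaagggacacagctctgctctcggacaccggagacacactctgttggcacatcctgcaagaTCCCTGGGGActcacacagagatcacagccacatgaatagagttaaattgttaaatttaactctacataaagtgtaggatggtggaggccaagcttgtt
Pou2af1: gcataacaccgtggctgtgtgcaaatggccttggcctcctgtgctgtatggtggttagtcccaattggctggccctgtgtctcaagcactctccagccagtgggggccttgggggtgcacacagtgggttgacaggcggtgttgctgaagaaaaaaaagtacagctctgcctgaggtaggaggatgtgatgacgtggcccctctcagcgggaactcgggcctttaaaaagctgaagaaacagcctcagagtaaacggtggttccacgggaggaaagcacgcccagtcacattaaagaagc

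Cd79a held GGAAGT on the gene's strand, its first base 54 bases before the start site, a motif present in 23.8% of the 32851 promoters of the table. Cd22 held TCCCNNGGG on both strands in overlapping positions, at 49 and 48 bases before the start site, and 6.56% of all promoters held it. The octamer, found in 1.74% of all promoters, had no match in the promoters of Cd79a, Cd22, Pou2af1 or Tnfrsf17. A match is a description of the letters only, and the lack of one does not show that a factor's site is absent.

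The 9 genes whose log2 values followed the mean standardised profile of the 7 tested genes most closely over the 6 samples were Lax1 (Pearson r = 0.979), Ccl19 (0.968), Zfp35 (0.959), Cxcr5 (0.949), Nol10 (0.947), Rad1 (0.944), Grap (0.942), Gimap7 (0.938) and 6720489N17Rik (0.935), out of 13632 ranked. Over all ranked genes the median r was 0.03, and 0.22% exceeded 0.9. Among these, Cxcr5 encodes the receptor that guides B cells to follicles, Ccl19 a lymphoid chemokine and Lax1 a lymphocyte adaptor protein. Lax1 stood at 3.38, 5.33, 3.48 and 3.36 rescaled CPM in castrated samples 1 to 4, against 5.76 and 3.46 in the intact samples. Cxcr5 stood at 0.666, 1.42, 0.809 and 0.581 in castrated samples, against 3.70 and 0.157 in the intact samples. Ccl19 stood at 3.69, 7.52, 3.66 and 2.28 in castrated samples, against 9.29 and 2.05 in the intact samples. In each of these 3 genes intact sample 1 was the highest and castrated sample 2 the second. The profile that selected them has the same order, at 1.34 in intact sample 1 and 0.78 in castrated sample 2. Their order therefore follows from the selection and is no separate result. The list of other B lineage genes held Spib, Fcrla, Fcmr and Tnfrsf13c above r = 0.9 besides Cxcr5, named after their values were seen. The list as a whole followed the profile less closely. Over its 31 tested genes the median r was 0.25, and some were negative, among them Ebf1 (-0.42) and Cd180 (-0.33).

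Of 31 tested genes in that list of B cell receptor and lineage genes, 0 passed in limma or edgeR, with 2 higher and 2 lower at an unadjusted p under 0.05, and DESeq2 called 3 (Plcg2, Ikzf3 and Cd38). The median log2 difference was -0.03. The highest were Ikzf3, a lymphoid transcription factor also used by T cells, at 1.66 (19.5 ± 5.15 rescaled CPM in castrated and 6.0 ± 2.84 in intact samples; SD, n = 4 and 2; limma adjusted p = 0.0668), the phospholipase gene Plcg2 at 0.51 and the repressor gene Bach2 at 0.33. The lowest were the adaptor gene Bank1 at -1.01 (1.22 ± 0.424 in castrated and 3.02 ± 1.28 in intact samples; limma adjusted p = 0.192), the ectoenzyme gene Cd38 at -0.99 and Ciita, the activator of MHC class II genes, at -0.53. In 26 of the 31, intact sample 1 exceeded intact sample 2, where the median log2 difference between them over all genes tested was 0.0035. In 7 of the 31, intact sample 1 lay above and intact sample 2 below every castrated sample, against 1.47% of all genes tested. Several genes of the list, among them Cd24a, Blnk and Lyn, are also expressed outside B cells, and these 3 exceeded 50 rescaled CPM in each sample, against at most 3.70 for Cxcr5. Without castrated sample 4, limma called 3 genes of the list, Cd38 (log2 difference -1.14), Cd74 (-0.57) and Ikzf3 (1.77). Over all genes that fit called 1052, against 274 with all samples.

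**Figure D4:**
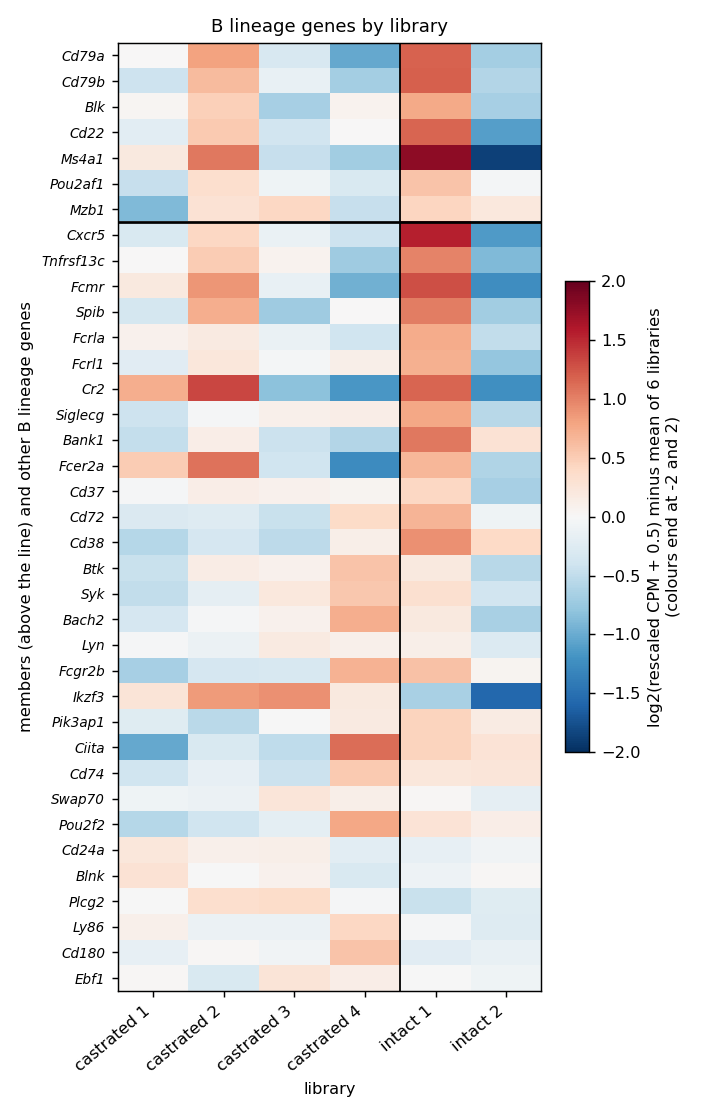
Log2(rescaled CPM + 0.5) of each gene minus its mean over the 6 libraries, with the 7 tested genes above the line and 30 other B lineage genes below it, ordered by their correlation with the mean profile of the 7. Red marks a library above a gene's mean and blue one below it. The intact samples 1 and 2 have opposite colours in Cd79a, Cd79b, Blk, Cd22, Ms4a1 and Cxcr5.

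Of 18 tested genes of plasma cells and antibody secretion, 0 passed in limma or edgeR, with 0 higher and 2 lower at an unadjusted p under 0.05, and DESeq2 called 1 (Fam46c). The median log2 difference was -0.08. The highest were the cell surface receptor gene Slamf7 (0.37), the secretory regulator gene Xbp1 (0.33) and the elongation factor gene Ell2 (0.26). The lowest were Fam46c, which encodes a poly(A) polymerase (-1.06, limma adjusted p = 0.0917), the syndecan gene Sdc1 (-0.71) and the costimulatory receptor gene Cd28 (-0.66). Epithelial cells express Sdc1, Xbp1 and the secretory genes of this list as well. Intact sample 1 exceeded intact sample 2 in 10 of the 18, with a median log2 difference of 0.02, against 0.74 in the B lineage list.

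Of 12 tested attractants, survival factors and their receptors, 0 passed in limma or edgeR, with 1 higher and 1 lower at an unadjusted p under 0.05, and DESeq2 called 2 (Ccl28 and Cxcr4). The highest log2 differences were those of the chemokine receptor gene Cxcr4 (1.36, limma adjusted p = 0.178) and its ligand gene Cxcl12 (0.50). The lowest were those of Ccl28, a mucosal chemokine that attracts plasma cells (-1.82, limma adjusted p = 0.174), and Cd40, a receptor for T cell help (-0.68). Ccl28 stood at 29.4, 11.2, 25.5 and 13.6 rescaled CPM in castrated samples 1 to 4, against 117 and 37.1 in the intact samples. The follicular chemokine gene Cxcl13, named after its values were seen, stood at 15.5, 29.3, 5.50 and 26.1 in castrated samples, against 39.5 and 7.85 in the intact samples. In 11 of the 12, intact sample 1 exceeded intact sample 2. Ccl21a had 0 reads in every sample. Of 8 germinal centre genes 4 were tested and 0 passed in limma, edgeR or DESeq2, with 0 at an unadjusted p under 0.05.

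Markers of other cells were set beside these values. Of 22 tested T and NK cell genes, 0 passed in limma, edgeR or DESeq2, with 0 higher and 1 lower at an unadjusted p under 0.05. Intact sample 1 exceeded intact sample 2 in 19 of them, by a median of 0.58 on the log2 scale, against 1.78 for the 7 tested B and plasma cell genes. The same median was 1.08 for the attractants, 0.97 for neutrophil genes and 0.70 for lymphatic and high endothelial genes. It was 0.22 for dendritic cell, 0.21 for macrophage and monocyte, 0.11 for MHC class II, -0.12 for germinal centre and -0.09 for prostate epithelium genes. The T and NK cell list summed to 80.9 to 166 rescaled CPM in castrated samples, against 157 and 120 in intact samples 1 and 2. For 8 tested genes of MHC class II, which B cells share with macrophages and dendritic cells, limma, edgeR and DESeq2 called 0 each, and 0 had an unadjusted p under 0.05. Their sum was 714 to 1375 in castrated samples, against 1248 and 1175 in the intact samples. Dendritic cell genes summed to 43.5 to 81.8 in castrated samples, against 55.6 and 48.5 in the intact samples, with 0 of 8 called by limma, edgeR or DESeq2 and 0 at an unadjusted p under 0.05. Of 15 macrophage and monocyte genes, 1 fell (Ly6c2, log2 difference -2.49, limma adjusted p = 0.0466, 0.0559 in edgeR, and from 0.0300 to 0.304 in limma with 1 sample left out). At an unadjusted p under 0.05, 0 were higher and 3 lower, and DESeq2 called 3 (Mrc1, Ly6c2 and Mertk), as many as limma with array weights or the replicate block. That list summed to 828 to 1203 in castrated samples, against 1225 and 1062 in the intact samples. Of 7 tested neutrophil genes, 4 rose in castrated samples (S100a8, S100a9, Cxcr2 and Csf3r), and the sum of the list was 214 to 371 in castrated samples, against 74.6 and 33.0 in the intact samples. With 1 sample left out, limma called from 0 to 5 of these 7, and edgeR called 2 with all samples. Elane was at 0 in every sample. The lymphatic and high endothelial genes, which mark lymph node and lymphatic vessels, summed to 37.5 to 60.5 in castrated samples, against 71.3 and 53.4 in the intact samples, with 0 of 4 tested genes called by limma, edgeR or DESeq2 and 1 higher and 1 lower at an unadjusted p under 0.05. The list of prostate epithelium genes summed to 6213 to 7349 in castrated samples, against 7865 and 7677 in the intact samples. Without castrated sample 4, limma called 3 MHC class II genes, 1 lymphatic and high endothelial gene and 4 macrophage and monocyte genes. The same fit called 1052 genes over the whole table, against 274 with all samples. The part of these other cells in the B cell values was not tested.

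**Figure D5:**
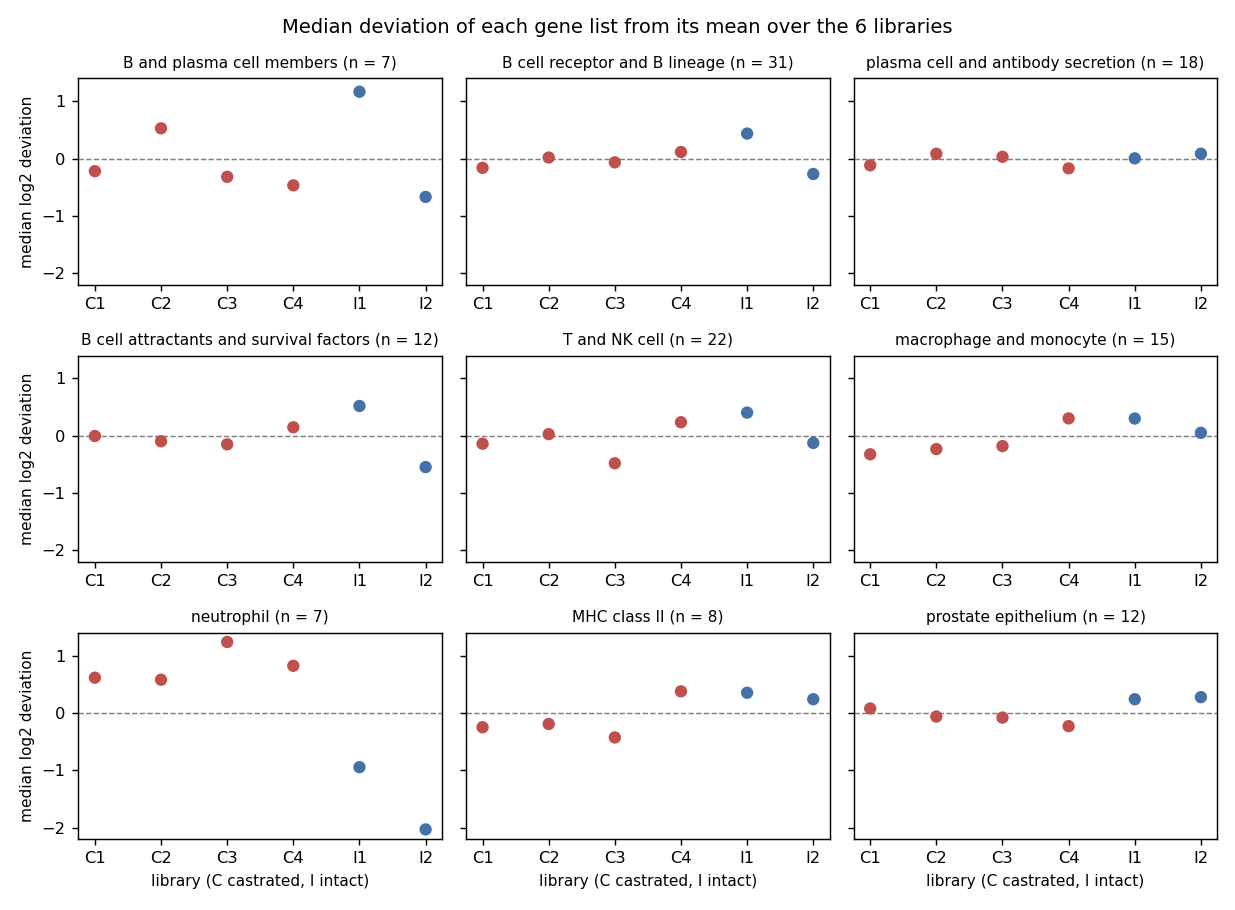
Median over the tested genes of each list of log2(rescaled CPM + 0.5) minus the gene's mean over the 6 libraries (vertical axis), for castrated samples C1 to C4 and intact samples I1 and I2. The B and plasma cell genes reach 1.17 in intact sample 1 and -0.67 in intact sample 2, where the T and NK cell list reaches 0.40 and -0.12. In the same 2 samples the attractants and survival factors lie at 0.52 and -0.55, and the neutrophil list at -0.95 and -2.03.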

How the data were processed

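Total RNA of 6 mouse prostate samples was sequenced. The authors deposited 1 table of CPM per sample, reads per 1000000 reads counted in genes, and each column sums to 1000000. Per the submitters' processing notes the tools were TopHat2, HTSeq and edgeR and the build mm10, and their settings are not given in the sources used here. Dividing each sample's column by its smallest value above 0 gave whole numbers for 100% of values (tolerance 1e-06), taken as whole reads recovered.

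Samples were rescaled with median-of-ratios factors. A gene entered the tests where its unscaled CPM reached 1 in 2 or more samples, which held for 13898 genes. The main test was limma 3.58.1 in R 4.3.3 on log2(rescaled CPM + 0.5) with a mean-variance trend, two-sided, adjusted over all genes tested by the Benjamini-Hochberg method. Fold changes on this scale understate the change of weakly expressed genes. edgeR 4.0.16 and DESeq2 1.42.0 were fitted to the recovered reads. The steps were also run on simulated counts with the same dispersion for every gene. That run does not show how they perform on genes that vary more between samples. Positions and exon lengths are from GENCODE M21 (GRCm38, the assembly that mm10 names).

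The 8 genes and the other lists were chosen with earlier results of these data known. Named beside the 8 were called genes of the lists, the 3 highest and 3 lowest log2 differences of the B lineage and plasma cell lists, the 2 highest and 2 lowest of the attractants, and genes of a mean of at least 1 rescaled CPM closest to the mean profile. A few genes that this rule takes are not reported here. The labels give no batch. The alternatives were other pseudocounts, filters, scalings, moderation and weights, a replicate block, and each sample left out in turn.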

Additional observations from a re-analysis of the deposited data

How the results depend on the processing

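None of the 8 B and plasma cell genes was called under the 12 alternatives that drop no sample or with 1 castrated sample left out. The lowest adjusted p of these 12 was 0.491, for Mzb1 in limma with the replicate block. In that fit a castrated sample whose replicate number no intact sample shares adds nothing to the group difference. The replicate block therefore compares only the pairs that share a number. The fits without an intact sample also called 0, but they say little: the lone intact sample is assumed to vary like the castrated ones, which alone give the spread, and over all genes they called 9 and 1. Their lowest adjusted p was 0.374, without intact sample 2. The direction was less stable. With the replicate block Cd79a (0.16), Blk (0.21) and Cd22 (0.13) turned positive, and with array weights Cd22 did (0.0767). Ms4a1 turned negative with a pseudocount of 1 (-0.0925), quantile normalization (-0.00915), edgeR (-0.81) and DESeq2 (-0.81). With 1 sample left out, the log2 differences ranged from -1.32 to 0.54 for Cd79a, -1.35 to 0.43 for Cd79b, -0.78 to 0.64 for Blk, -1.18 to 1.09 for Cd22, -1.76 to 1.89 for Ms4a1, -0.70 to -0.09 for Pou2af1, -0.67 to -0.24 for Mzb1 and -0.0916 to 0.75 for Bach2. Tnfrsf17 was tested with no filter alone, and Ms4a1 was not tested under the strict filter.

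Over all genes limma called 274, 97 higher and 177 lower, against 170 with no filter, 954 with array weights, 417 with the replicate block, 203 with edgeR and 1293 with DESeq2, and from 1 to 1052 with 1 sample left out (1 without intact sample 2, 9 without intact sample 1, 1052 without castrated sample 4). The cause was not tested. The replicate numbers are shared by 2 pairs, whose deviations from their group means correlated at 0.08 and 0.23 across genes. With 2 intact samples these values mirror each other and cannot show whether a batch is shared, and the labels tie the numbers to none. The neutrophil count of 4 ranged from 0 to 5 with 1 sample left out and was 2 in edgeR and 7 in DESeq2, and Ly6c2 kept its call in 2 of the 6 fits without a sample. Array weights called 3 B lineage, 1 plasma cell, 3 macrophage, 6 neutrophil and 1 lymphatic gene, and the replicate block 1 attractant, 3 macrophage, 4 neutrophil and 1 lymphatic gene. The tested B and plasma cell genes had 11 to 597 reads per sample, and the 2 intact samples limit the precision of each group difference.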
